A study of Homo sapiens with 6 samples.

Results

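The snoRNA host noncoding RNAs are long noncoding transcripts whose introns carry small nucleolar RNAs, and 10 of them were listed: GAS5, SNHG1, SNHG3, SNHG5, SNHG7, SNHG8, SNHG12, SNHG15, SNHG16 and ZFAS1. Members were taken from the array rows that the platform's annotation names with exactly 1 gene symbol. That rule left 1 member, ZFAS1, of the 33616 genes measured on such rows. The other 9 names occur only on rows that also carry other symbols, in most cases the snoRNAs inside the host's own introns. ZFAS1 has such a row as well, so 11 rows in all name a listed host. On a shared row the host RNA, its snoRNAs and any other gene listed cannot be told apart, and the values of these 10 rows are given below as values of the row, not of the gene.

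The RNA came from H295R, a human adrenocortical carcinoma cell line that makes steroid hormones. One group of 3 samples was exposed for 24 h to 5 µM CX-4945 (silmitasertib), an inhibitor of the protein kinase CK2 that also acts on the CLK family, kinases of splicing factors. The control group of 3 samples received the solvent DMSO for 24 h. Each sample was hybridised to 1 whole-transcript array, and the comparison asks which RNA levels changed with the inhibitor. Whether replicates came from separate cultures is not in the labels. The p-values therefore rest on the spread among these samples alone, and that spread may be technical. In bulk RNA, fewer cells of a type and less RNA per cell cannot be told apart.

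A host transcript is made by RNA polymerase II and spliced, and its introns are trimmed to snoRNAs that guide ribose methylation (box C/D) or pseudouridylation (box H/ACA) of ribosomal RNA. The joined exons reach the cytoplasm and hold only short open reading frames. In several hosts, GAS5 the best known, ribosomes that read those frames expose the RNA to nonsense-mediated decay (NMD), so the spliced host RNA is short-lived while cells translate and accumulates when translation or NMD is blocked. Many hosts start with a terminal oligopyrimidine (TOP) tract, a C followed by pyrimidines at the first base, as do the messenger RNAs of ribosomal proteins. TOP RNAs are loaded on ribosomes or held back from them according to mTOR activity and the binding protein LARP1.

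The first bases of the hosts are shown because a TOP tract, where a host has one, stands there. RefSeq start windows (GRCh38.p14) were found for 9 of the 10 hosts. The transcript strand alone was searched for a C at the annotated start followed by pyrimidines (C or T), for a run of at least 5 bases. Such a run was present in 3 of 9 hosts (ZFAS1, SNHG5 and SNHG12), compared with 4.07% of 35116 annotated starts of all genes. A run of at least 8 bases anywhere within 25 bases of the start was present in 2 of 9 hosts (22.22%), close to the 16.61% of all starts. The windows below hold 20 bases before the annotated start and 30 from it on, with the tract in capitals where one was found, and they cover promoter and the beginning of the first exon. One start per gene was used, and other RefSeq transcripts of ZFAS1 and SNHG12 begin further upstream.
ZFAS1: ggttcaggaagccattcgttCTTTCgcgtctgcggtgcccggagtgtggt
SNHG5: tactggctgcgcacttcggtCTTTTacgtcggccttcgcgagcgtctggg
SNHG12: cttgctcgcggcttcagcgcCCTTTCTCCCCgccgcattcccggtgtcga
SNHG1: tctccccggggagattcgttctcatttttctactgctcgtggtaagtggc
GAS5: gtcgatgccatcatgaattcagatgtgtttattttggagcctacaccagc
ZFAS1 lies on the plus strand at chr20:49278622-49278671 and SNHG5 on the minus strand at chr6:85678704-85678753. SNHG12 is on the minus strand at chr1:28581844-28581893, SNHG1 on the minus strand at chr11:62855856-62855905 and GAS5 on the minus strand at chr1:173869016-173869065. The runs differ in length, with 5 bases in ZFAS1 and SNHG5 and 11 in SNHG12. In SNHG1 and GAS5 no run of 5 begins at the annotated base, which says only that these letters do not stand at that base.

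ZFAS1, an RNA transcribed next to the helicase gene ZNFX1 in the opposite direction and host of the SNORD12 snoRNAs, was higher with CX-4945. On its row of 1 symbol the intensities were 150.03, 199 and 167 in DMSO and 1348, 1514 and 1439.7 in CX-4945. Every treated array lay above every DMSO array, and the treated values were close together. The means on the log2 scale were 7.42 ± 0.21 in DMSO and 10.48 ± 0.08 in CX-4945 (SD, n = 3 each). The log2 difference was 3.07 ± 0.19 (SE), or 8.39-fold, with a limma adjusted p of 2.35e-07 over all 33616 genes. Among these genes 10.3% were called higher at an adjusted p of 0.05, and 81 had a larger log2 difference than ZFAS1. For ZFAS1 alone the exact permutation p (two-sided) was 0.1, and no lower value is possible with 3 against 3 arrays.

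The second ZFAS1 row, shared with SNORD12, SNORD12B and SNORD12C, was also higher. Its intensities were 3138, 3962 and 2901 in DMSO and 11427, 17412 and 13999 in CX-4945. The groups again did not overlap, and the lowest treated array was above the highest DMSO array by 1.53 on the log2 scale. The log2 difference of that row was 2.09 ± 0.19, or 4.26-fold (limma adjusted p = 7.03e-05 over all 135750 rows of the array). Both ZFAS1 rows thus rose, and the rise on the row with the snoRNAs was the smaller in value. The difference between these rises was not tested.

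Of the 10 rows that a listed host shares with other genes, 8 were higher with CX-4945, none was lower and 2 did not pass the test. The rows of SNHG15, SNHG5, GAS5, ZFAS1 and SNHG1 rose more than 4-fold. Over all rows of the array 9.87% were called changed, 6.2% higher and 3.67% lower. In a separate fit of the 48996 rows above the background level described below, 9834 rows and all 10 host rows were called higher. In all 10 shared rows the 3 treated arrays lay above the 3 DMSO arrays, which was so in 18.6% of all rows. The median log2 difference of the 10 rows was 1.73, with a range from 0.57 to 4.01, compared with a median of 0.114 over all rows. These rows were fitted together with every row of the array, a choice made after it was seen that 9 hosts have no row of their own.

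**Figure D1:**
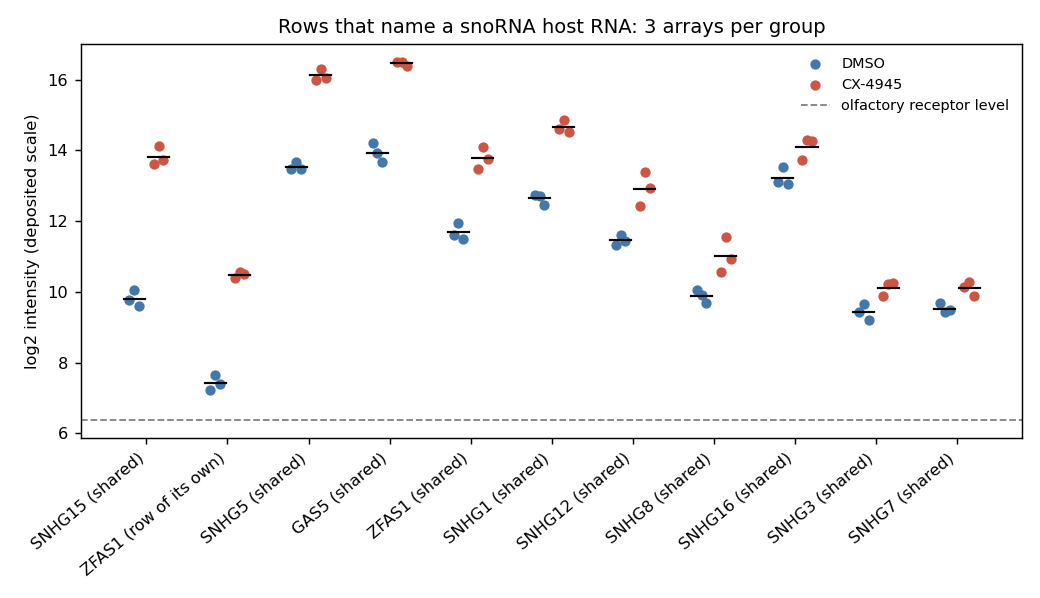
Log2 intensity (deposited scale) of each array for the 11 rows that name a listed host, ordered by their difference. Blue points are the 3 DMSO arrays, red points the 3 CX-4945 arrays, black bars the group means and the dashed line the level of olfactory receptor genes (6.38). In each row the treated points lie above the DMSO points, with the widest gap in the SNHG15 row.

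The largest rise among the shared rows was in the row of SNHG15 and its H/ACA snoRNA SNORA9. SNHG15 is known as a short-lived RNA that rises when cells are stressed or decay is blocked. Its row gave intensities of 876, 1059.9 and 781 in DMSO and 12454, 18038 and 13504 in CX-4945. No treated value came near the controls, with a gap of 3.55 on the log2 scale between the nearest arrays of the groups. The log2 difference was 4.01 ± 0.19, or 16.1-fold (limma adjusted p = 1.48e-06). Of the 135750 rows, 51 had a larger log2 difference.

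SNHG5 and GAS5 had the next largest rises among the shared rows. The row of SNHG5, host of the C/D snoRNAs SNORD50A and SNORD50B, read 11340.1, 13178 and 11464 in DMSO and 65632, 81314 and 68411 in CX-4945. That is a log2 difference of 2.58 ± 0.13, or 5.97-fold (limma adjusted p = 1.82e-06). GAS5, named for its accumulation in growth-arrested cells, shares its row with 9 C/D snoRNAs, SNORD44, SNORD47 and SNORD74 to SNORD80 without any other gene. The GAS5 row read 19065, 15586 and 13020.3 in DMSO and 93164, 92628 and 86309 in CX-4945, so that the treated arrays agreed closely (SD 0.06 on the log2 scale) and the DMSO arrays spread more (SD 0.28). Its log2 difference was 2.53 ± 0.14, or 5.77-fold (limma adjusted p = 3.46e-06). The rises of SNHG5 and GAS5 differ by less than either SE.

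SNHG1, the host of SNORD22 and SNORD25 to SNORD31, is known for a spliced RNA that is unstable while its intronic snoRNAs persist. Its row read 6905, 6719 and 5629 in DMSO and 25178, 29616 and 23336 in CX-4945. The groups did not overlap, and the log2 difference was 2.02 ± 0.15, or 4.05-fold (limma adjusted p = 1.76e-05). This lay within 1 SE of the shared ZFAS1 row. Rows with many snoRNAs, those of SNHG1 and GAS5, stood among the larger rises, as did the SNHG15 and SNHG5 rows with 1 or 2. The other rows with 1 or 2 snoRNAs had the smallest log2 differences. These were 1.14 for SNHG8, 0.86 for SNHG16, 0.68 for SNHG3 (with RCC1) and 0.57 for SNHG7. A link between the number of snoRNAs on a row and its rise was not tested.

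SNHG12, SNHG8 and SNHG16 rows rose less and varied more between treated arrays. The row of SNHG12 with SNORA16A, SNORA44 and SNORA61 read 2589, 3122 and 2804 in DMSO and 5468, 10775 and 7808 in CX-4945, a log2 difference of 1.45 ± 0.23 (limma adjusted p = 0.00235). The row of SNHG8 with SNORA24 read 1054, 957 and 820.3 in DMSO and 1499, 3024 and 1937 in CX-4945, a log2 difference of 1.14 ± 0.25 (limma adjusted p = 0.0157). In both rows replicate 2 was the highest and replicate 1 the lowest of the treated arrays, and all treated arrays lay above the controls. The row of SNHG16 with SNORD1A and SNORD1C read 8835, 11758 and 8535 in DMSO and 13528, 20099 and 19647 in CX-4945. Its log2 difference was 0.86 ± 0.19 (limma adjusted p = 0.0153), and the gap between the groups was 0.20 on the log2 scale. The SNHG8 call was lost without DMSO replicate 2 or 3 (limma adjusted p 0.0602 and 0.0728), and that of SNHG16 when any of 3 arrays was left out, DMSO replicate 1 (0.0741), replicate 3 of DMSO (0.0741) and replicate 3 of CX-4945 (0.0723).

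The rows of SNHG3 and SNHG7 did not pass the test. SNHG3 shares its row with SNORA73A, SNORA73B and the protein-coding gene RCC1, a chromatin-bound exchange factor for the GTPase Ran, which RefSeq places over the same stretch and strand. That row read 692, 807 and 587 in DMSO and 937, 1188 and 1215 in CX-4945, a log2 difference of 0.68 ± 0.20 (limma adjusted p = 0.0578). The row of SNHG7 with SNORA17A and SNORA17B read 822, 683 and 716 in DMSO and 1125, 1232 and 949 in CX-4945, a log2 difference of 0.57 ± 0.18 (limma adjusted p = 0.0866). In both the groups were apart by only 0.21 on the log2 scale.

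CX-4945 replicate 2 had the highest treated value in 8 of the 10 shared rows, and DMSO replicate 2 the highest control value in 6. In 5 of the rows replicate 2 was the highest in both groups. The SD of the rows on the log2 scale ran from 0.12 to 0.28 in the controls and from 0.06 to 0.51 in the treated arrays. CX-4945 replicate 2 also had the lowest correlations with its group, at r = 0.988 and r = 0.99 across genes, which are not independent replicates, compared with 0.994 between the other 2 treated arrays. Without it 8 of the 10 shared rows were still called higher, beside 11472 of all 135750 rows. The row differences were then 1.21 for SNHG12 and 0.86 for SNHG8.

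The snoRNAs inside the hosts could be set beside the hosts in few cases. RefSeq places 37 snoRNA genes within the 10 hosts, of which 17 have a row of 1 symbol. Of these 17, 3 passed the test and were higher (SNORD75, SNORD78 and SNORD81, all inside GAS5) and none was lower, compared with 10.3% higher and 12.5% lower among all genes. The median log2 difference over the 17 was 0.37, with a range from -0.26 to 1.07. The rows of these 3 do not carry the identifier of the gene inside GAS5, so whether they measure that copy cannot be told. The SNORD75 row lay below background in both groups, as did 10 of the 17. Only 2 of the 17 rows carry the identifier of the intronic gene. SNORD99, inside SNHG12, had a log2 difference of 0.45 ± 0.18 (limma adjusted p = 0.101), with treated arrays all above the controls. SNORD1B, inside SNHG16, had a log2 difference of 0.15 ± 0.31 (limma adjusted p = 0.815) at a level below background in both groups. Neither passed the test, and the difference between these snoRNAs and the shared rows of their hosts was not tested.

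Other noncoding hosts gave a mixed picture. Of 16 further hosts listed, 3 have a row of their own. EPB41L4A-AS1, host of a snoRNA on chromosome 5, rose 5.33-fold, from 1026, 1119 and 942 in DMSO to 5259, 6165 and 5036 in CX-4945 (log2 difference 2.41 ± 0.16, limma adjusted p = 5.83e-07). The treated arrays stood far above the controls, as for ZFAS1. SNHG19 was higher by 0.98 ± 0.28 (limma adjusted p = 0.0239), a call lost in 8 of 17 alternatives. MEG8, a maternally expressed RNA of an imprinted snoRNA cluster, had a log2 difference of -0.29 ± 0.15 (limma adjusted p = 0.219).

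Among 14 further rows that a noncoding host shares with small RNAs alone, 5 were higher and 1 lower, with a median log2 difference of 0.24. On all rows 6.2% were called higher and 3.67% lower. In the separate fit of the 48996 rows above background, 9834 rows were called higher, and 5 of 11 of the further noncoding host rows. The 5 higher in the main fit were the rows of SNHG17 (2.09 ± 0.27), SNHG32 (2.02 ± 0.16), PWAR5 (1.52 ± 0.17), SNHG6 (1.41 ± 0.15) and SNHG11 (1.27 ± 0.22) on the log2 scale. The lower one was the row of MEG8 and SNORD112 (-0.95 ± 0.18). The rows of SNHG29, SNHG10, SNHG21 and SNHG22 had log2 differences between -0.01 and 0.14 and did not pass, and 3 of the 14 lay below background in both groups. DANCR, which shares its row with a microRNA, was lower by a log2 difference of -0.64 ± 0.16 (limma adjusted p = 0.0293). As the SNHG3 row does with RCC1, 3 more rows join a noncoding host to a protein-coding gene, and none of them rose. The row of SNHG20 and SEC14L1 fell by 2.66 ± 0.14 on the log2 scale (limma adjusted p = 2.07e-06) and that of PWARSN, SNRPN and SNURF by 0.79 ± 0.12 (limma adjusted p = 0.00145). The row of SNHG4 and MATR3 had a log2 difference of -0.28 ± 0.14 (limma adjusted p = 0.291). A TOP run at the annotated start measured 13 bases in SNHG4 and 6 in SNHG19 and SNHG32, and none began at the starts of EPB41L4A-AS1, SNHG17 and SNHG11.

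Protein-coding genes that host snoRNAs, many of them TOP genes of the translation machinery, had rows that ranged from a 4-fold rise to a fall of similar size. Of 53 rows that 1 coding gene shares with snoRNAs, 15 were higher and 3 lower, with a median log2 difference of 0.33, compared with 6.2% higher and 3.67% lower over all rows. In the separate fit of the 48996 rows above background, 9834 rows were called higher, and 21 of 51 coding host rows. With the intensity trend left out of the fit, 5 of the 53 were called higher, and 7973 of all 135750 rows. The 20 ribosomal protein rows among the 53 gave 5 higher, none lower, a median of 0.34 and a highest value of 0.69 (RPLP2), so none reached 2-fold. The highest coding rows were those of CCNB1IP1, which rose 3.999-fold (limma adjusted p = 1.79e-04), KANSL2 (1.54 ± 0.15) and RABGGTB (1.03 ± 0.13). The CCNB1IP1 rise was close in value to that of the SNHG1 row and above those of SNHG12, SNHG8 and SNHG16. The lower rows were those of EP400 (-1.98 ± 0.15), TMEM107 (-1.84 ± 0.21) and ODC1 (-1.19 ± 0.14). Of 11 coding hosts measured on rows of their own, of 38 listed, the mitochondrial chaperone HSPA9 was higher (0.81 ± 0.12) and RPS12 lower (-0.59 ± 0.13), and CCT6A (0.35) and TNPO2 (0.56) did not pass. Among all genes 10.3% were called higher and 12.5% lower. RABGGTB has a row of its own as well, on which the groups overlapped (0.19 ± 0.23, limma adjusted p = 0.642). The difference between coding and noncoding hosts was not tested, since the sets were formed after the data were seen.

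**Figure D2:**
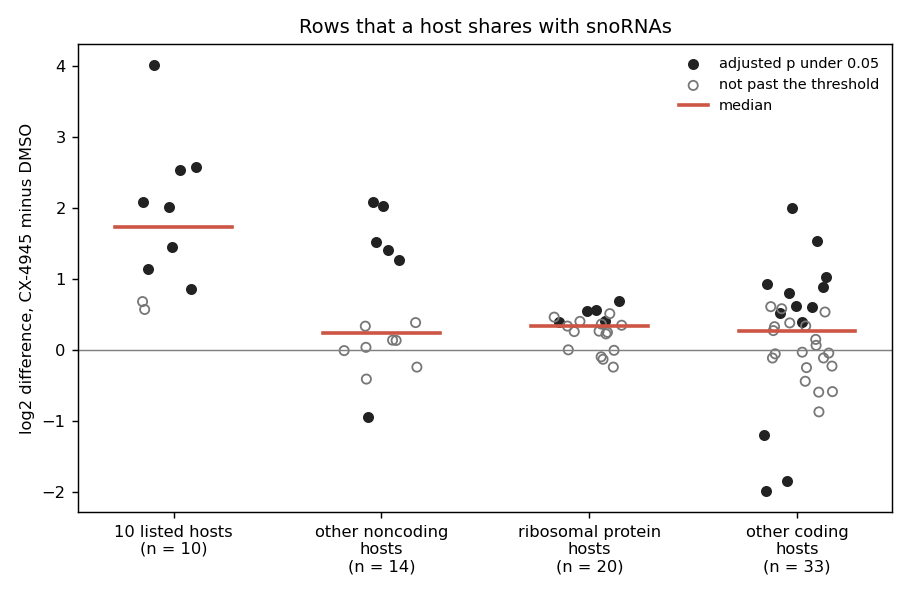
Log2 difference (CX-4945 minus DMSO) of rows that a host gene shares with snoRNAs, in 4 sets of hosts. Filled points passed an adjusted p of 0.05, open points did not, and red bars are medians. All 10 rows of the listed hosts lie above 0.5, whereas the ribosomal protein rows lie between -0.24 and 0.69.

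Most genes that lie beside the hosts did not pass the test. RefSeq names 23 protein-coding genes that overlap a host or are the nearest on either side, of which 19 have a row of their own. Of these, 5 were higher, 2 lower and 12 did not pass, compared with 10.3% and 12.5% called higher and lower among all genes. The 5 higher genes lie beside GAS5, SNHG1 and SNHG15. Of the 19 neighbours, 4 lay below background in both groups. Whether hosts and neighbours rose together was not tested. ZNFX1, which ZFAS1 faces, read 285, 373 and 289 in DMSO and 419, 519 and 416 in CX-4945, a log2 difference of 0.52 ± 0.20 (limma adjusted p = 0.0852), called higher with the mean of its rows (0.0269) and with 2 filters on dim genes (0.0496 and 0.0475). ZBTB37, a zinc finger gene on the opposite strand whose start lies 665 bases from that of GAS5, had a log2 difference of -0.35 ± 0.21 (limma adjusted p = 0.296). Its mean log2 level was 6.72 in DMSO and 6.37 in CX-4945, near the background level of 6.38.

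The called neighbours went both ways. On the other side of GAS5, the antithrombin gene SERPINC1 rose 17.4-fold (log2 difference 4.12 ± 0.19, limma adjusted p = 3.18e-08). SLC3A2, the heavy chain of amino acid transporters, which lies next to SNHG1, rose by 1.51 ± 0.13, and WDR74 on its other side by 0.57 ± 0.18. The genes flanking SNHG15, MYO1G and CCM2, were higher by 0.73 ± 0.21 and 0.61 ± 0.18, compared with 4.01 for the SNHG15 row. MYO1G had a mean log2 level of 5.81 in DMSO, below the background level of 6.38, and of 6.54 in CX-4945. At SNHG7, DIPK1B, which overlaps the host on the opposite strand, fell by 2.10 on the log2 scale and AGPAT2 by 0.74. TRNAU1AP, which overlaps SNHG12 on the opposite strand, had a log2 difference of 0.00 ± 0.20. The genes beside SNHG5, SNHG8 and SNHG16 had log2 differences between -0.23 and 0.11 and did not pass.

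**Figure D3:**
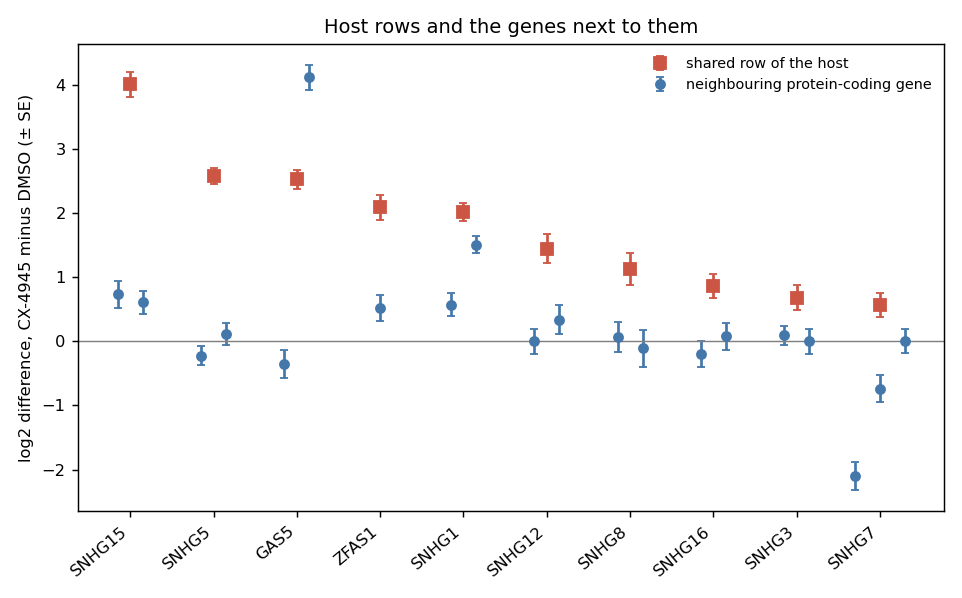
Log2 difference (CX-4945 minus DMSO) with the SE of the fit for the shared row of each listed host (red squares) and for its measured neighbouring protein-coding genes (blue circles). The host row stands above its neighbours except at GAS5, where SERPINC1 is at 4.12.

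Genes that build snoRNPs or act on the decay and translation of host RNAs moved in both directions. The counts below stand beside 10.3% of all genes called higher, 12.5% lower and 22.8% in either direction. In a separate fit of the 17405 genes above the background level, 3553 were called higher and 4264 lower. At most 1 measured gene of each list below lay under that level in both groups. Of 19 measured snoRNP proteins and assembly factors (21 listed), 8 were higher and 3 lower, with a median log2 difference of 0.41 compared with 0.023 over all genes. The rises with the smallest p were those of the C/D assembly factor ZNHIT3 (1.68 ± 0.20), the RNA export adaptor PHAX (0.98 ± 0.12), the cap hypermethylase TGS1 (1.08 ± 0.16) and the H/ACA assembly factor SHQ1 (0.87 ± 0.14). Of 15 measured NMD and exon junction factors (19 listed), 6 were higher and 2 lower, with a median of 0.34. Among them the junction proteins RBM8A (0.72 ± 0.15), RNPS1 (0.60 ± 0.14) and EIF4A3 (0.64 ± 0.17) and the NMD helicase UPF1 (0.97 ± 0.26) were higher, UPF1 with a call lost in 4 of 17 alternatives.

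Of 18 measured decapping, deadenylation and exonuclease genes (23 listed), 4 were higher and 6 lower, with a median log2 difference of -0.27. The decapping scaffold EDC4 fell by 2.05 ± 0.19 on the log2 scale to below background, DCP1B by 1.35 ± 0.15 and the Ski complex subunit SKIC3 by 1.61 ± 0.28, while the exosome nuclease DIS3 rose by 1.57 ± 0.20. Of 13 measured regulators of TOP RNAs (14 listed), 2 were higher and 4 lower, with a median of -0.32. HNRNPD, which binds AU-rich RNA (-2.36 ± 0.12), and the kinase MTOR (-1.42 ± 0.18) were lower, whereas the translational repressor EIF4EBP1 (2.21 ± 0.21) and LARP1B (2.003-fold, limma adjusted p = 0.00411) were higher. LARP1 itself had a log2 difference of -0.40 ± 0.15 (limma adjusted p = 0.0784).

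Messenger RNAs known as NMD targets were split. Of 19 measured (20 listed), 8 were higher and 3 lower, with a median log2 difference of 0.42. GADD45A (4.09 ± 0.20), ATF4 (1.82 ± 0.15) and GADD45B (1.78 ± 0.23) rose, and HNRNPDL fell by 1.52 ± 0.12. The first 3 of these are also stress-response genes, and HNRNPDL is a splicing regulator that feeds back on its own RNA. SMG5, an NMD factor whose RNA is itself an NMD target, had a log2 difference of 0.20 ± 0.20 (limma adjusted p = 0.557).

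**Figure D4:**
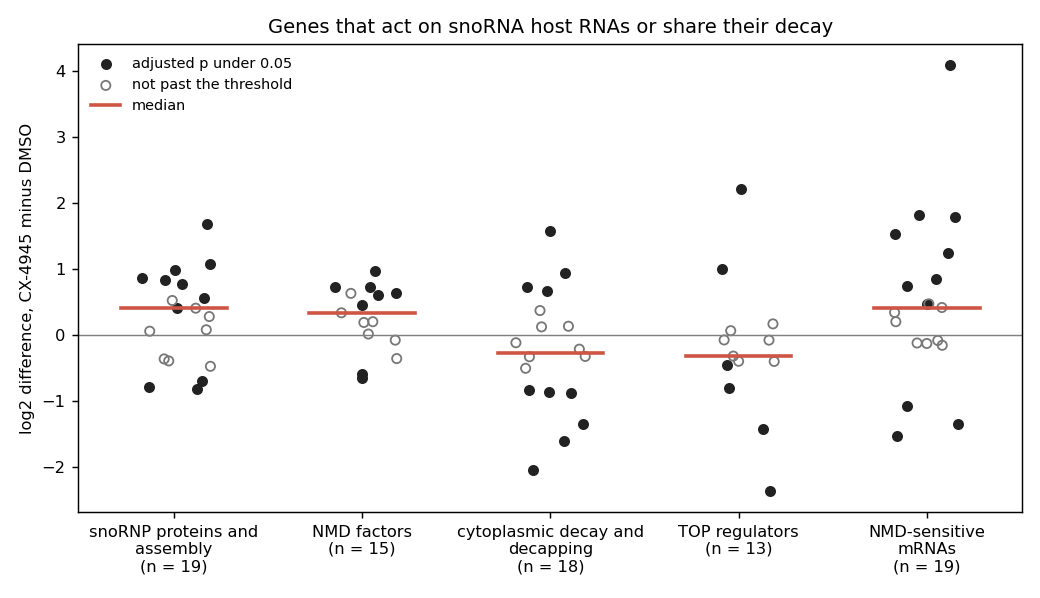
Log2 difference (CX-4945 minus DMSO) of measured genes in 5 lists around the hosts, with n the number measured. Filled points passed an adjusted p of 0.05, open points did not, and red bars are medians, which run from -0.32 for the TOP regulators to 0.42 for the NMD-sensitive RNAs.

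Outside the listed hosts, the gene whose 6 values ran most like those of ZFAS1 was NRP1, which encodes the receptor neuropilin. The root mean square difference between their gene-centred log2 values over the 6 arrays was 0.11. NRP1 read 275, 297 and 245 in DMSO and 2219.7, 2427 and 2237 in CX-4945, and its log2 difference was 3.08 ± 0.17. The likeness is a description over 6 arrays in 2 groups.

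For the series as a whole, array medians ran from 40.7 to 43.1 in the controls and from 45.8 to 46.5 in the treated cells, and 22.8% of genes were called changed in either direction. The background level was set at a log2 intensity of 6.38, below which 95% of 400 olfactory receptor genes had their mean, and the 11 host rows lay above it in both groups. In DMSO, 6 of the 7 measured adrenocortical markers were above this level, from HSD3B2 to SCARB1, and INHA was below it. Of 8 markers of other cell types, 6 were below it in both groups, CD3E and VWF were above it, HBB was called lower, and their log2 levels in DMSO ran from 4.74 to 6.95. The 6 adrenocortical markers above background were lower with CX-4945, and their part in the results on the host rows was not tested.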

How the data were processed

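RNA of 6 H295R samples, 3 exposed to CX-4945 and 3 to DMSO, was prepared for arrays with a whole-transcript labelling kit, per the labels' protocols. Per the submitters' processing notes the authors used Affymetrix Expression Console. For its version, its normalization and the genome build, the entry is: not given in the sources used here. Deposited values are intensities on a linear scale, from 6.41 to 919659, and were not rescaled. Their log2 was used with no pseudocount.

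The platform's annotation gives 36176 of 135750 rows 1 symbol, 1119 several and the rest none. Each of 33616 genes was represented by its brightest row. Groups were compared with limma 3.58.1 in R 4.3.3 (eBayes with an intensity trend, two-sided, Benjamini-Hochberg adjustment, threshold 0.05). Shared rows were tested in the same fit over all rows. A log2 difference is treated minus control, given with the fit's SE. The fit was also run on data simulated from its own variances, which cannot show array artefacts or dependence between replicates. No pair of arrays had more than 15 equal values. The number of arrays limits the precision. Deviations of same-numbered replicates from their group means were at most weakly correlated (r = -0.035 to 0.092 across genes), so replicates were not paired. Between different numbers r ran from -0.141 to 0.055.

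Members, lists and tests were chosen with earlier results of these data known. All rows naming a member are given, each other list by its counts, its median and up to 4 genes with the smallest adjusted p, neighbours by position in RefSeq GRCh38.p14. The shared rows, their host classes and the genes named from these classes, LARP1 and SMG5 were chosen after their values were seen. The alternatives were quantile normalization, equal medians, no trend, no moderation, 2 filters on dim genes, the mean of a gene's rows, every row tested, array weights, the replicate number as a block, treat against a fold of 1.2 and leaving out each array. Plots were drawn with matplotlib 3.10.9.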

Additional observations from a re-analysis of the deposited data

How the results depend on the processing

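ZFAS1 on its own row was called higher in all 17 alternatives, with log2 differences from 2.91 to 3.18. In the 15 alternatives run on rows, no shared row of a listed host was called lower. Of the 10 shared rows, 8 were called higher in the main fit, beside 8421 of all 135750 rows. With 1 array left out 6 to 8 were called, beside 4997 to 11472 of all rows. Without moderation of the variance 5 were called (1965 of all rows higher) and with treat 7 (4581). With the filter at the olfactory receptor level 10 were called, beside 9834 of 48996 rows. The shared rows of SNHG15, SNHG5, GAS5, ZFAS1 and SNHG1 passed in all 15 alternatives run on rows. SNHG3 passed in 3 of them and SNHG7 in 1. The number of snoRNAs inside hosts called higher was 3 of 17 in the main fit (3469 of 33616 genes higher). It was 1 with quantile normalization (2624 genes), equal medians (2539), no moderation (1692), every row tested (2536) or treat (2031). It was 0 when a gene's rows were averaged (3438), and 1 to 4 with 1 array left out (2542 to 4226). With the replicate number as a block it was 5 (3705), while the block left the shared rows at 8 (8181 of all rows) and ZFAS1 called. With either filter on dim genes 4 of 7 snoRNAs were called, beside 3346 of 16808 and 3553 of 17405 genes. Coding hosts on shared rows, 15 of 53 higher in the main fit, ranged from 5 of 53 to 21 of 51. The 5 came without an intensity trend (7973 of all 135750 rows higher), without moderation (1965) and with treat (4581). The 21 came with the filter at the olfactory receptor level (9834 of 48996 rows higher). The median log2 difference over all rows was 0.114 on the deposited scale. It was -0.001 under quantile normalization and -0.019 under equal medians, and the shared host rows kept their direction under both. All genes called numbered 4259 without moderation, compared with 7665. The causes of these changes were not tested. With 3 arrays a group, the rows of SNHG3 and SNHG7 lay near the threshold in the main fit (limma adjusted p = 0.0578 and 0.0866). Some rows with smaller rises passed, such as that of RPS3A (0.55 ± 0.10, limma adjusted p = 0.0040).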
